A study of Mus musculus with 18 samples.

Results

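The genes described here are the receptors and the non-chemokine ligands of the KEGG cytokine-cytokine receptor interaction pathway that L929 cells expressed at a measurable level. The table listed 57180 genes, of which 290 carried the pathway's annotation, and 93 of these reached 10 counts in at least 3 of the 18 libraries. The 13 Ccl and Cxcl chemokines and 10 further genes (Il6, Lif, Il33, Csf1, Ifnar1, Ifnar2, Ifngr1, Ifngr2, Fas and Eda2r) were left out, which left 70 members. Of the 70 members, 58 reached 10 counts in all 18 libraries. Il15, Ackr3 and Ctf2 would have missed the minimum without the libraries of 1 group, and Il15 was the single member that the expression filter of the test removed.

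L929 is an established mouse fibroblast line, here wild type. Each of the 6 groups had 3 biological replicates. Mock cells carried the treatment label DMSO. AOA (aminooxyacetic acid, an aminotransferase inhibitor that lowers cellular aspartate) was given at 0.5 mM from 1 h ahead, AOA+Asp cells received 20 mM aspartate as well, and HT-DNA cells were transfected with 0.5 μg/ml herring testis DNA, an agonist of the cytosolic DNA sensor cGAS, for 6 h by lipofection. The HT-DNA+AOA and HT-DNA+AOA+Asp groups combined these treatments. No group received aspartate alone or HT-DNA with aspartate. Whether the cells without HT-DNA saw the transfection reagent was not stated in the sources used here. The DNA and the reagent therefore cannot be told apart wherever transfected cells are set against cells without HT-DNA.

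Cytokines are secreted or membrane-bound proteins that act through receptors on the surface of responding cells. Class I and class II receptors signal through JAK kinases and STAT factors, the TNF, IL-1 and IL-17 receptors through adaptors to NF-κB and MAP kinases, and the receptors of the TGF-β superfamily are serine/threonine kinases that phosphorylate SMAD proteins. Fibroblasts are known both as responders to these signals and as a source of ligands such as TGF-β1 and IL-11. Herring testis DNA acts through cGAS and STING on the kinase TBK1, with IRF3 and NF-κB as the known downstream factors.

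Library totals ran from 17901580 to 24057322 counts with a median of 20385825. Libraries of 1 group correlated at 0.975 to 0.992 on log counts. The HT-DNA+AOA libraries differed most among themselves. Their chi-square per degree of freedom was 67 between replicates 1 and 3, 26 between 1 and 2, and 18.2 between 2 and 3. Pairs within the other groups had 2.78 to 13.3. These values do not single out replicate 3, as replicate 1 lay further from replicate 2 than replicate 3 did. For the HT-DNA+AOA group, the counts over all members and the differences of the members described most closely are also given without replicate 3. Of the 44 calls for HT-DNA+AOA against HT-DNA, 35 were kept without replicate 1, 34 without replicate 2 and 38 without replicate 3. Of the 42 calls for HT-DNA+AOA+Asp against HT-DNA+AOA, 38, 34 and 35 were kept in the same order. Where no value without replicate 3 stands beside a member's call, the call and its direction were kept without that library. The fibroblast genes Col1a1, Col1a2, Col3a1, Vim, Fn1, Pdgfrb and S100a4 were expressed, whereas Thy1, Lum and Dcn never exceeded 4 counts. The leukocyte genes Ptprc, Adgre1 and Cd3e had no count in any library, although Cd68 was present at 110 to 155 CPM (counts scaled to a common library size, with TMM normalization between libraries). Markers of epithelial and endothelial cells summed to under 1 CPM in each library. RNA came from whole cultures, so fewer cells of a kind and less RNA per cell cannot be told apart.

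Expression was uneven across the members. Per kilobase of transcript, the mean level over all libraries ran from 0.0877 CPM per kb (Ackr3) to 148.3 (Tnfrsf12a) with a median of 2.72, and 19 members were under 1 while 13 were above 10. Among the highest were Tnfrsf12a (the receptor of TWEAK), Tnfrsf1a (TNF receptor 1) at 34.1, Ltbr (the lymphotoxin β receptor) at 31.1 and Gdf15 (a stress-induced member of the TGF-β superfamily) at 19.7 CPM per kb. Several members were expressed without a pathway partner they are known to pair with or bind. Il23a, which encodes the p19 chain of IL-23, was present while Il12b, the chain it pairs with, never exceeded 2 counts and Il23r had none. Epor was present while Epo had no count, and Il20rb was present while its partner Il20ra never exceeded 1 count. Cd40 was present while its ligand Cd40lg had none.

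The 197 pathway genes under the minimum, 79 of them at 0 in all libraries, were not tested. Among them Ifnb1 had 6, 4 and 2 counts in the HT-DNA+AOA libraries, 1 count in HT-DNA+AOA+Asp replicate 1 and none elsewhere, which is at or near the 3 counts that a 0 allows.

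The first question was what AOA did to these genes without transfected DNA and whether added aspartate undid it. AOA against Mock called 13 members higher and 23 lower of 69 tested, by edgeR's quasi-likelihood test at an adjusted p of 0.05 over all genes tested. Over all 14263 genes the same comparison called 45.7%, of which 22.5% were higher and 23.2% lower, so the members' share of 36 in 69 was near that of all genes. The members' median log2 fold change was -0.17 against 0.02 for all genes. AOA+Asp against AOA called 17 members higher and 20 lower (46.3% of all genes called, 23.4% higher and 22.8% lower), and the 2 comparisons share the AOA libraries. AOA+Asp against Mock called 1 member higher and 10 lower, while 6.47% of all genes were called, 2.52% higher and 3.95% lower. With library totals in place of TMM factors the 3 splits became 11 higher and 27 lower, 19 and 18, and 0 and 13, as that scaling moved the median of all genes by -0.13 for AOA against Mock.

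The second question was the response to HT-DNA itself. HT-DNA against Mock called 16 members higher and 13 lower, where 48.2% of all genes were called (24.2% higher and 24% lower), and the split turned to 11 higher and 19 lower with library totals, which moved the median of all genes by -0.11. The third question was how AOA and aspartate acted on transfected cells. HT-DNA+AOA against HT-DNA called 19 members higher and 25 lower (45.4% of all genes, 22.8% and 22.7%). HT-DNA+AOA+Asp against HT-DNA+AOA called 20 higher and 22 lower (47.7%, with 23.7% higher and 23.9% lower), or 22 and 20 with library totals. HT-DNA+AOA+Asp against HT-DNA called 8 higher and 23 lower, with 46.6% of all genes called (23.2% and 23.5%). The first of these counts was 18 higher and 23 lower without HT-DNA+AOA replicate 3, with 51.2% of all genes called (25.8% and 25.4%), and the next was 16 and 20, with 41% called (21.2% and 19.8%).

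Large changes were few. A log2 fold change of at least 1 was called with AOA for 4 members higher and 4 lower, against 3.58% and 3.89% of all genes, and with aspartate on AOA for 3 and 6 (3.46% and 3.71%). AOA+Asp against Mock had 0 and 2 such members (0.168% and 0.344%), and HT-DNA against Mock 2 and 1 (1.33% and 3.04%). With HT-DNA present, AOA gave 4 and 6 (6.29% and 3.96%), aspartate 4 and 7 (3.33% and 4.39%), and both together 0 and 2 (2.57% and 0.827%). The AOA interaction had 1 and 1 (1.74% and 0.266%), HT-DNA on AOA 1 and 0 (1.54% and 0.308%), HT-DNA on AOA with aspartate none (0.624% and 0.0982%), and the difference between that response and HT-DNA alone none (0.547% and 0.126%). Without HT-DNA+AOA replicate 3, AOA with HT-DNA present gave 3 and 6 (7.3% and 4.59%), aspartate 3 and 7 (2.75% and 4.35%), the AOA interaction 3 and 0 (3.43% and 0.735%) and HT-DNA on AOA 2 and 0 (1.63% and 0.282%).

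The replicates of the groups compared did not overlap for 44 of 69 tested members with AOA (59.4% of all genes), 43 with aspartate on AOA (56.8%), 33 for AOA+Asp against Mock (32.7%) and 41 with HT-DNA (61.3%). With HT-DNA present they did not overlap for 36 members with AOA (44.8%), 40 with aspartate (48.8%) and 42 with both (61.1%). For HT-DNA on AOA the number was 21 (21%) and for HT-DNA on AOA with aspartate 26 (28.5%). Without HT-DNA+AOA replicate 3, in a fit that tested all 70 members, the numbers were 46 with AOA in transfected cells (60.9%), 44 with aspartate (58.1%) and 29 for HT-DNA on AOA (34.2%). Non-overlap was thus common in the whole table, not only among the members.

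**Figure D1:**
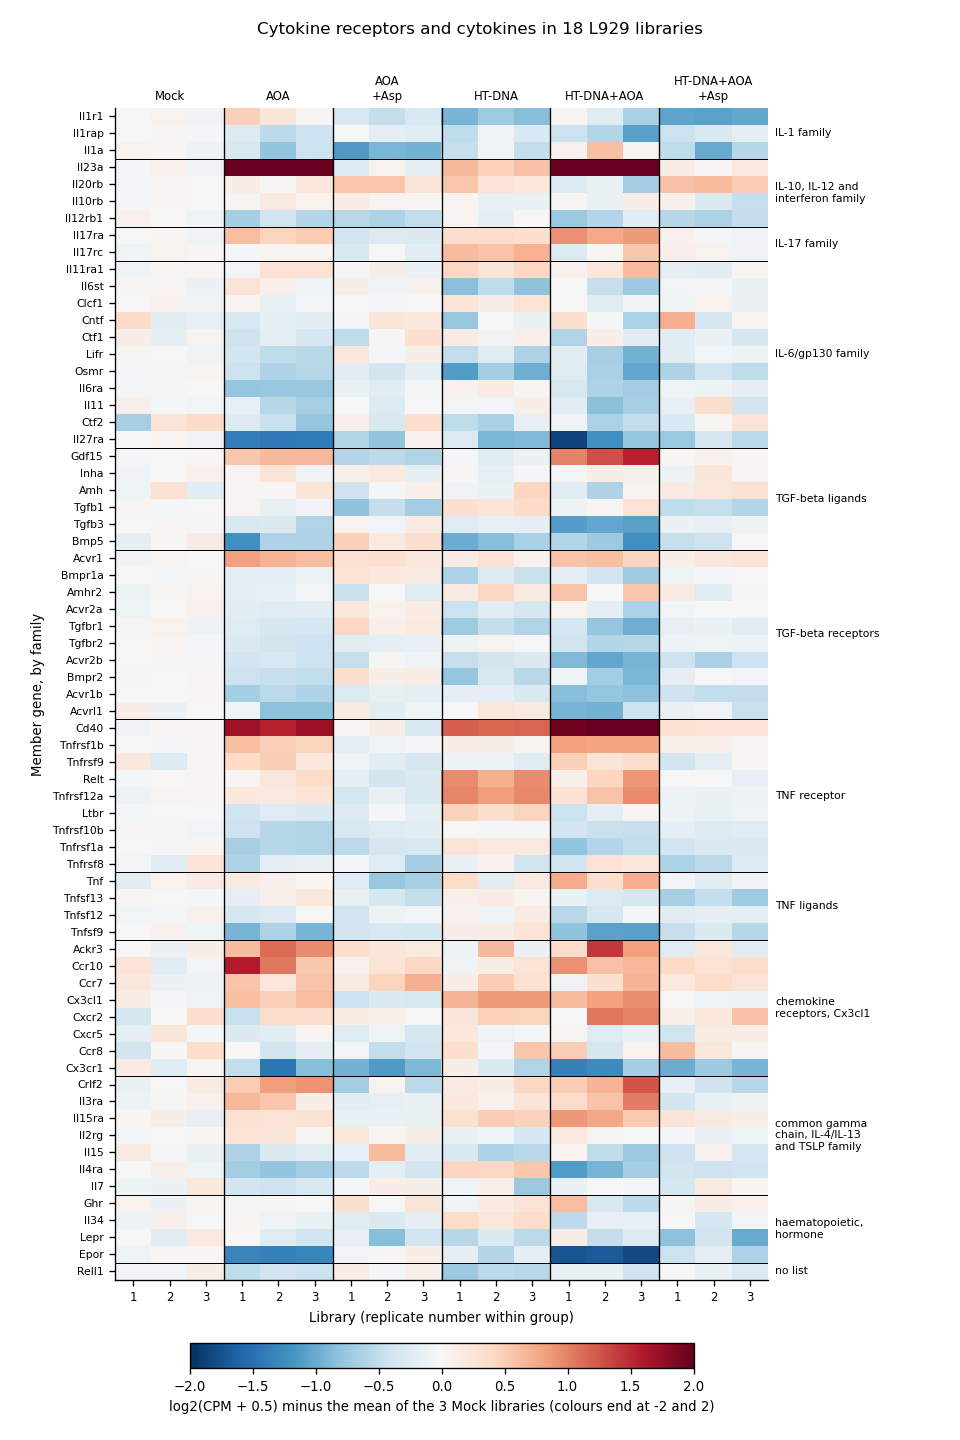
Each row is 1 of 69 member genes and each column a library, grouped by treatment; the colour gives log2(CPM + 0.5) minus the mean of the 3 Mock libraries, and rows are ordered by family and then by the change with AOA. Il23a and Cd40 are darkest in the AOA and HT-DNA+AOA columns and close to Mock in AOA+Asp, while Epor and Il27ra show the opposite colours.

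The effect of AOA was measured once without and once with HT-DNA, in libraries that the 2 comparisons do not share. Across 69 members the 2 sets of log2 fold changes correlated at r = 0.73 (genes of 1 experiment, hence no independent points), with the same sign in 47. The 29 members called in both made up 80.6% of those called without HT-DNA and 65.9% of those called with it. Of these, 12 were higher and 15 lower in both, and the other two, Il1a and Rell1, were called in opposite directions. The effect of aspartate on AOA-treated cells, likewise free of shared libraries, had r = 0.88 between the settings without and with HT-DNA, and 34 members were called in both, 15 higher and 19 lower, with none in opposite directions. Without HT-DNA+AOA replicate 3 the r values were 0.68 and 0.85, the members called in both were 28 (10 higher and 15 lower) and 31 (12 and 19), and Osmr joined Il1a and Rell1. The calls of Rell1 were kept in every alternative tried except the fold minimum, and those of Il1a were not, as given with its levels. Of all genes, 45.7% and 45.4% were called with AOA without and with HT-DNA, and 46.3% and 47.7% with aspartate. The agreement between settings was not computed over all genes, so it is not shown to be particular to the members.

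Il23a had the largest rise with AOA among the members called at a mean of 1 CPM or more. Its level was 3.85, 4.24 and 3.75 CPM in Mock, 22.6, 19.4 and 20.2 in AOA, and 3.17, 4.16 and 3.41 in AOA+Asp. With HT-DNA it stood at 6.47, 5.64 and 6.16 CPM, rose to 33.1, 35.8 and 37.4 with AOA, and was 4.35, 4.04 and 4.59 with AOA and aspartate. The AOA libraries lay apart from those of Mock and AOA+Asp, and the HT-DNA+AOA libraries were the highest of all. AOA raised Il23a by 2.39 ± 0.11 (log2 fold change ± SE, n = 3 per group, edgeR adjusted p = 7.8e-12) and by 2.54 ± 0.10 on top of HT-DNA, and aspartate lowered it by -2.53 ± 0.11 and -3.03 ± 0.11. The values in transfected cells were 2.50 and -2.99 without HT-DNA+AOA replicate 3. HT-DNA alone raised it by 0.62 ± 0.12 (edgeR adjusted p = 0.00038). Among the other measured genes of the IL-10 and IL-12 group, Il12rb1, a receptor chain shared by IL-12 and IL-23, fell by 0.58 ± 0.12 on the log2 scale with AOA, and aspartate did not bring it back: AOA+Asp lay -0.58 ± 0.12 from Mock and HT-DNA+AOA+Asp -0.54 ± 0.13 from HT-DNA. The last of these calls was lost after correction for GC content and length, which kept 17 of the 31 calls in that comparison. Il10rb, a shared chain of the IL-10 family, was called in none of these comparisons.

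In the list of TNF receptors and related genes, HT-DNA raised 6 of 10 members and lowered none (4 and none after correction for GC content and length), and AOA raised 3 and lowered 3. Of all genes, HT-DNA raised 24.2% and lowered 24%, and AOA raised 22.5% and lowered 23.2%, so the AOA counts were near those of all genes. After the correction, 52.7% of the HT-DNA calls over all genes were higher, against 50.2% before it. Cd40, a costimulatory receptor, rose with either treatment and further with both. Cd40 measured 24.3, 26.1 and 25.8 CPM in Mock, 83.3, 75.7 and 83.9 in AOA, and 25.9, 27.9 and 20.5 in AOA+Asp. It measured 59.0, 56.8 and 57.3 CPM in HT-DNA, 98.2, 106.9 and 133.4 in HT-DNA+AOA, and 31.5, 31.1 and 30.8 in HT-DNA+AOA+Asp. The 3 libraries with HT-DNA, AOA and aspartate were thus below every HT-DNA library and near Mock. The log2 fold change was 1.67 ± 0.11 for AOA against Mock, 1.18 ± 0.11 for HT-DNA against Mock and 0.97 ± 0.10 for AOA on top of HT-DNA (edgeR adjusted p of 9.6e-10, 3.4e-07 and 3.7e-07). The last of these was 0.83 without HT-DNA+AOA replicate 3, and aspartate lowered Cd40 in transfected cells by -1.72 in place of -1.86.

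Tnfrsf12a and Relt, a lymphoid receptor of the same superfamily, rose with HT-DNA and were not called with AOA. Tnfrsf12a had 217.9, 241.1 and 240.6 CPM in Mock and 459.0, 417.4 and 453.1 in HT-DNA, and the 3 HT-DNA+AOA+Asp libraries were back at 216.7, 211.9 and 217.5. The HT-DNA+AOA libraries were spread between these at 288.0, 347.7 and 449.1. The response to HT-DNA was 0.93 ± 0.11 (edgeR adjusted p = 5.4e-06) and 0.53 after correction for GC content and length. AOA lay -0.29 ± 0.11 below HT-DNA, which was called, but at -0.09 it was not after that correction. That call was also lost in the fit of these groups alone and without HT-DNA replicate 1 or 3 or HT-DNA+AOA replicate 1 or 2, and without HT-DNA+AOA replicate 3 the difference was -0.48. Aspartate lowered Tnfrsf12a by -0.49 ± 0.11 without HT-DNA and by -0.75 ± 0.11 with it.

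Both TNF receptors moved with AOA in opposite directions. Tnfrsf1a, which is broadly expressed and carries a death domain, fell from 104.7, 103.5 and 109.0 CPM to 66.3, 70.7 and 69.2, a log2 fold change of -0.62 ± 0.08, and by -0.84 ± 0.08 on top of HT-DNA. Tnfrsf1b (TNF receptor 2), which lacks that domain, rose from 21.0, 20.4 and 21.1 CPM to 31.8, 29.2 and 28.6, a log2 fold change of 0.52 ± 0.07, and by 0.70 ± 0.07 on top of HT-DNA. On top of HT-DNA the values were -0.90 for Tnfrsf1a and 0.71 for Tnfrsf1b without HT-DNA+AOA replicate 3. Aspartate returned Tnfrsf1b to 18.2, 19.5 and 20.3 CPM but left Tnfrsf1a at 72.3, 83.8 and 84.6, below Mock by -0.40 ± 0.08. Tnfrsf10b, the mouse TRAIL receptor, went the way of Tnfrsf1a, at -0.54 ± 0.07 with AOA alone and -0.41 ± 0.07 on top of HT-DNA.

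Among the 4 ligands of the TNF superfamily, AOA lowered Tnfsf9 (the 4-1BB ligand) from 13.7, 14.4 and 12.8 CPM to 6.93, 8.72 and 6.92 and called none of the other 3. Tnf was at 1.47 to 5.07 CPM in all libraries. It was not called with AOA or with HT-DNA alone, rose with AOA on top of HT-DNA by 0.54 ± 0.20, and fell with aspartate by -0.78 ± 0.21 without HT-DNA and -0.83 ± 0.20 with it. The rise of Tnf was no longer called with no filter on low counts, in the fit of these groups alone, or without HT-DNA+AOA replicate 1 or 3 or HT-DNA replicate 2 or 3. Tnfsf12 and Tnfsf13 share 47.4% and 58.4% of their 31-base sequences with the readthrough gene Tnfsfm13, so how reads were split among the 3 genes is uncertain.

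**Figure D2:**
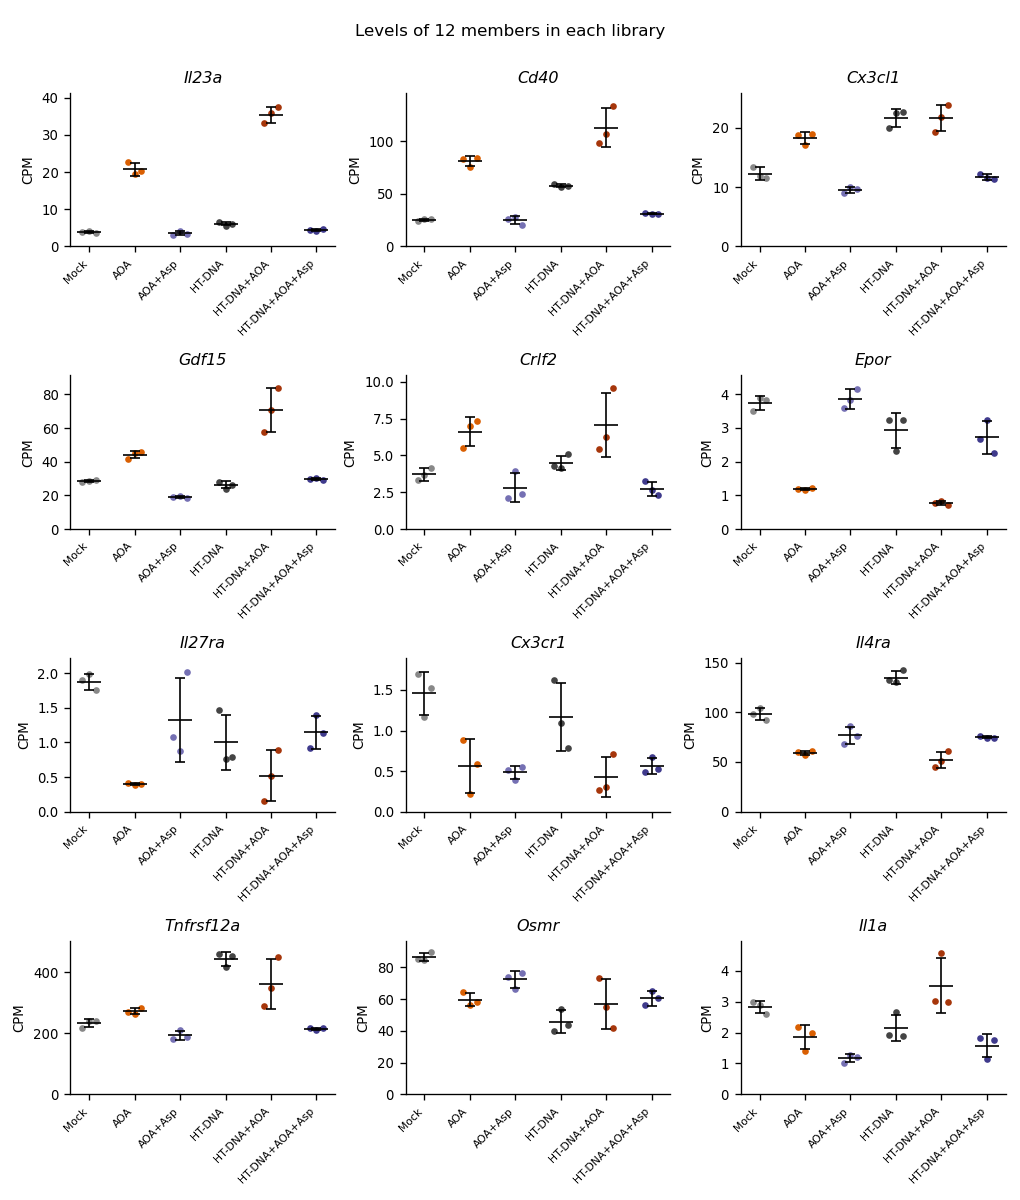
Each panel gives 1 member in CPM from 0; points are the 3 libraries of a group, the long bar is their mean and the whiskers 1 SD. The means of Il23a, Cd40, Gdf15 and Crlf2 are highest in HT-DNA+AOA, those of Epor and Il4ra lowest there, and Cx3cr1 is lower in every group with AOA than in Mock.

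Among the common γ chain, IL-4 and TSLP group, AOA raised 3 of 6 tested members and lowered 1, although with library totals the count was 1 raised and 1 lowered, beside 22.5% raised and 23.2% lowered of all genes. Il4ra, the chain shared by the IL-4 and IL-13 receptors, was the 1 lowered, against the direction of the 3 that rose. It was at 97.8, 104.7 and 92.0 CPM in Mock, 60.3, 56.8 and 60.7 in AOA, and 68.2, 85.8 and 76.0 in AOA+Asp. With HT-DNA it rose to 132.1, 130.3 and 142.3 CPM, with HT-DNA+AOA it was 44.98, 51.2 and 60.8, and with aspartate 75.7, 73.7 and 74.5. Il4ra rose by 0.46 ± 0.09 with HT-DNA alone and was not called with HT-DNA on top of AOA (-0.18 ± 0.10). HT-DNA+AOA lay -1.37 ± 0.10 below HT-DNA, and aspartate raised it by 0.51 ± 0.10. These 3 values were -0.30, which was then called, -1.49 and 0.63 without HT-DNA+AOA replicate 3. Crlf2, the TSLP receptor, rose from 3.30, 3.65 and 4.18 CPM to 5.49, 6.998 and 7.33 with AOA (0.83 ± 0.22, edgeR adjusted p = 0.0049), and aspartate lowered it by -1.24 ± 0.23. On top of HT-DNA the rise of Crlf2 was 0.64 ± 0.22. It was no longer called in the fit of these groups alone, or without HT-DNA replicate 1 or 2 or HT-DNA+AOA replicate 3. Il15ra and Il3ra rose with AOA by 0.30 ± 0.10 and 0.52 ± 0.17, both fell again with aspartate, and neither rise was called with library totals. The shared chain Il2rg was at 9.09 to 14.2 CPM in all libraries and was called once, higher with HT-DNA+AOA than with HT-DNA by 0.29 ± 0.10, a call lost with library totals, with no filter and after correction for GC content and length, in the fit of these groups alone, and without HT-DNA replicate 3 or HT-DNA+AOA replicate 1, and 28.7% of its 31-base sequences occur in Gm20489.

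The 2 measured IL-17 receptor chains differed. Il17ra, the chain common to the family, rose with AOA by 0.53 ± 0.07 and with HT-DNA by 0.35 ± 0.07. Its AOA libraries held 141.6 to 159.8 CPM, its AOA+Asp libraries 79.7 to 85.9, and its Mock libraries 98.9 to 107.9, so that with aspartate it lay below Mock by -0.31 ± 0.07, a call lost without Mock replicate 2 or AOA+Asp replicate 1. Il17rc, the partner that binds IL-17A and IL-17F with it, rose with HT-DNA by 0.65 ± 0.14 and was not called with AOA at 0.02 ± 0.14.

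In the IL-1 group, Il1rap, the accessory chain of the IL-1 receptor, fell with AOA from 106.7, 108.4 and 103.6 CPM to 87.9, 73.8 and 79.6, a call lost without AOA replicate 2. Il1r1, the chain that binds IL-1, was lower with HT-DNA at 11.02, 13.0 and 11.7 CPM against 21.6, 22.7 and 20.4 in Mock. AOA raised it by 0.60 ± 0.14 in transfected cells. Without HT-DNA its difference of 0.26 ± 0.13 was not called. Aspartate lowered it in both settings, by -0.64 ± 0.13 and -0.83 ± 0.14. In transfected cells without HT-DNA+AOA replicate 3, the log2 fold changes were 0.76 with AOA and -0.99 with aspartate. The ligand Il1a was low, between 1.03 and 4.57 CPM, and 10% of its 31-base sequences occur in Gm14023. It fell with AOA by 0.62 ± 0.23 on the log2 scale without HT-DNA and rose by 0.72 ± 0.22 with it. The fall was not called with no filter on low counts, or without Mock replicate 1 or 2 or AOA replicate 2 or 3. The rise was not called after correction for GC content and length (0.50), in the fit of these groups alone, or without HT-DNA replicate 1 or 3 or HT-DNA+AOA replicate 2, and it was 0.82 without HT-DNA+AOA replicate 3.

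In the IL-6 and gp130 family, AOA lowered 4 of 11 members and raised none, beside 23.2% lowered and 22.5% raised of all genes, and after correction for GC content and length 1 was higher. Over all genes, 52.1% of the calls with AOA were higher after that correction, against 49.1% before it. The 4 members lowered were Il6ra (the IL-6 receptor), Lifr, Osmr (the oncostatin M receptor) and Il27ra. Il6ra went from 26.9, 27.7 and 27.3 CPM to 15.8, 16.0 and 15.9 and back to 24.9, 23.2 and 26.8 with aspartate, groups that did not overlap between AOA and either neighbour. Il27ra went from 1.90, 1.98 and 1.76 CPM to 0.41, 0.39 and 0.41, a log2 fold change of -2.21 ± 0.42. That call was lost with a minimum of 10 counts in every library. The AOA+Asp libraries of Il27ra ranged widely from 0.88 to 2.02. The shared chain Il6st (gp130) was not called with AOA. Of the ligands of this family, Clcf1 was at 41.8 to 60.5 CPM in all libraries, and Il11, at 0.21 to 1.11 CPM, was lower with HT-DNA+AOA than with HT-DNA by -1.07 ± 0.41, a call lost in several alternatives, among them leaving out any 1 HT-DNA library or HT-DNA+AOA replicate 2 or 3.

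HT-DNA by contrast lowered Il6st from 181.4, 182.0 and 161.5 CPM to 97.8, 122.1 and 99.3 and Osmr from 85.6, 84.6 and 89.8 CPM to 39.8, 53.8 and 43.6. The log2 fold changes were -0.72 ± 0.14 and -0.92 ± 0.14, which became -0.38 and -0.43 after correction for GC content and length, both still called. With AOA and aspartate the HT-DNA libraries of Il6st held 168.5, 171.2 and 159.6 CPM. The fall of Lifr with HT-DNA (-0.46 ± 0.13) was at -0.05 and not called after that correction. Of the 11 members, HT-DNA raised 2, Clcf1 and Il11ra1, and lowered 4 (24.2% and 24% of all genes). Neither rise was called after that correction or with library totals. Clcf1 was lower with HT-DNA+AOA than with HT-DNA, a call that the correction also removed. Cntf shares 78.4% of its 31-base sequences with Zfp91 and Il11ra1 57.7% with Gm13305, so their counts are uncertain.

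Of the 10 receptors of the TGF-β superfamily, AOA lowered 6 and raised 1, Acvr1, where it lowered 23.2% and raised 22.5% of all genes. AOA+Asp against AOA, which shares the AOA libraries, raised 6 and lowered 1, again Acvr1 (23.4% and 22.8% of all genes). In transfected cells AOA lowered 4 and raised 1, and aspartate raised 7 and lowered 1, beside 22.7% lowered and 22.8% raised of all genes with AOA and 23.7% raised and 23.9% lowered with aspartate. Without HT-DNA+AOA replicate 3 the counts were 4 lower and 2 higher with AOA, and 6 higher and 1 lower with aspartate. Tgfbr2, the type II receptor that binds TGF-β, fell from 70.6, 72.8 and 69.2 CPM in Mock to 58.0, 54.8 and 53.3 in AOA, whereas Bmpr1a, a type I BMP receptor, was not called with AOA and rose with aspartate by 0.37 ± 0.10. Acvr1 (ALK2), a type I receptor for BMPs and activins, was at 29.4, 32.0 and 31.1 CPM in Mock, 54.8, 50.1 and 47.3 in AOA and 38.1, 38.5 and 36.1 in AOA+Asp, so that aspartate left it above Mock by 0.29 ± 0.08, a call that was lost whenever 1 Mock or AOA+Asp library was left out and with library totals. Acvr1b (ALK4), the type I receptor for activins, went down from 48.0, 47.9 and 49.4 CPM to 29.9, 33.4 and 31.3. Both are type I kinases of the same family, and their values with AOA moved apart by 0.72 ± 0.08 and -0.62 ± 0.07.

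HT-DNA lowered 6 of the 10 receptors and raised none (24% and 24.2% of all genes), at a median log2 fold change of -0.28. After correction for GC content and length together, the count was 4 lower and 2 higher with a median of -0.08. Over all genes, 52.7% of the calls with HT-DNA were higher after the correction, against 50.2% before it. The parts of GC content and length in the change among the receptors were not tested. Bmpr2, the type II BMP receptor, showed this most: it went from 48.2, 48.9 and 51.1 CPM to 28.7, 39.3 and 33.5, a log2 fold change of -0.55 ± 0.15 that the correction brought to 0.00 with no call. Tgfbr1, the type I TGF-β receptor, kept a called fall of -0.29 after the correction, from -0.60 ± 0.12 before it. The fall of 6 receptors with AOA was also 6 after the correction, at a median of -0.23 against -0.34 before.

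Of the TGF-β superfamily ligands, Gdf15 rose with AOA and Tgfb3 and Bmp5 fell. Gdf15 measured 28.1, 28.6 and 29.1 CPM in Mock, 41.8, 45.3 and 45.7 in AOA, and 18.8, 19.8 and 18.6 in AOA+Asp, below Mock by -0.58 ± 0.10. With HT-DNA it measured 28.3, 24.1 and 26.3 CPM, with HT-DNA+AOA 57.5, 70.6 and 83.7, and with HT-DNA+AOA+Asp 29.5, 30.5 and 29.2. HT-DNA alone gave no call (-0.12 ± 0.10), whereas HT-DNA on top of AOA raised Gdf15 by 0.67 ± 0.10 and HT-DNA on top of AOA and aspartate by 0.64 ± 0.10. AOA on top of HT-DNA raised it by 1.43 and aspartate lowered it by -1.25. When HT-DNA+AOA replicate 3 was left out, the rise on top of AOA was 0.53, the rise with AOA on top of HT-DNA 1.29 and the fall with aspartate -1.11.

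Tgfb3 was 15.8 to 16.5 CPM in Mock, 10.5 to 13.2 in AOA and 7.31 to 7.65 in HT-DNA+AOA, and returned to 14.4 to 15.1 with aspartate. AOA on top of HT-DNA lowered it by -0.92, and by -0.91 without HT-DNA+AOA replicate 3. Tgfb1 differed from both, as AOA left it at -0.05 ± 0.10 from Mock. Its level was 67.2, 63.9 and 64.9 CPM in Mock, 68.3, 58.6 and 62.1 in AOA and 37.4, 47.0 and 40.2 in AOA+Asp. Aspartate lowered Tgfb1 by -0.60 ± 0.10 both without and with HT-DNA, so that it lay under Mock by -0.65 ± 0.10. Without HT-DNA, aspartate lowered 7 members that AOA alone had not changed past the threshold, namely Il1r1, Relt, Tgfb1, Tnf, Tnfrsf12a, Tnfrsf9 and Tnfsf13. Aspartate lowered 22.8% of all genes there, and the share of these that AOA had not changed was not computed. The call of Tnfsf13 was lost with library totals, with no filter, after correction for GC content and length, and with DESeq2. It was also lost in the fit of these groups alone and without some single libraries. Bmp5 was low, at 0.36 to 2.29 CPM, and shares 46.2% of its 31-base sequences with Gm26903.

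**Figure D3:**
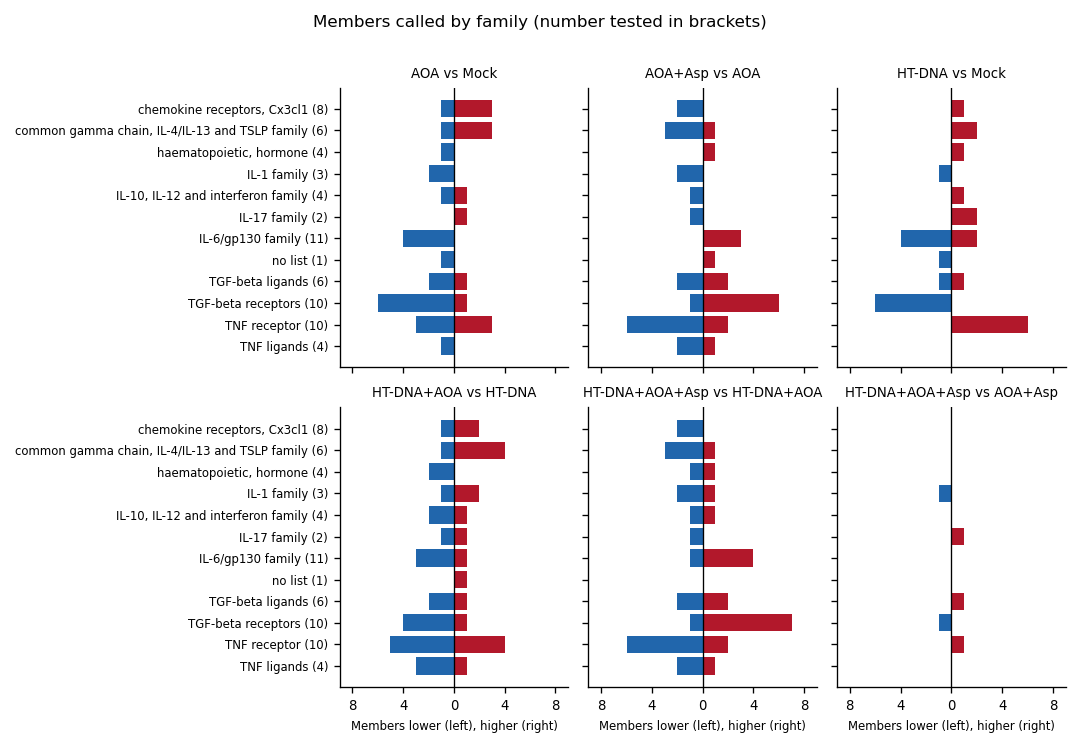
Each panel is 1 comparison, bars to the right count the members of a family called higher and bars to the left those called lower, with the number tested in brackets. TGF-β receptors lie mostly left with AOA (6 lower, 1 higher) and right with aspartate (6 higher, 1 lower), TNF receptors lie right with HT-DNA (6 higher), and few bars remain for HT-DNA in the presence of AOA and aspartate.

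Epor, the erythropoietin receptor, was the 1 of 4 haematopoietic and hormone genes that AOA lowered. It was 3.51, 3.88 and 3.84 CPM in Mock, 1.19, 1.16 and 1.22 in AOA and 3.59, 3.82 and 4.17 in AOA+Asp. With HT-DNA+AOA the libraries held 0.78, 0.82 and 0.72 CPM against 3.23, 2.32 and 3.23 with HT-DNA. The log2 fold changes for AOA were -1.65 ± 0.18 and -1.91 ± 0.20 (edgeR adjusted p of 7.6e-07 and 2.9e-07), and aspartate raised Epor by 1.70 ± 0.18 and 1.80 ± 0.20. In transfected cells the log2 fold changes were -1.86 and 1.75 without HT-DNA+AOA replicate 3. Ghr, the growth hormone receptor, was called in none of the comparisons. Il34, a second ligand of the CSF1 receptor, rose with HT-DNA by 0.34 and was lower with HT-DNA+AOA than with HT-DNA, although the rise was not called after correction for GC content and length, with library totals, with no filter, or without Mock replicate 1 or 3 or HT-DNA replicate 1 or 3.

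Cx3cr1 and its ligand Cx3cl1, a membrane-bound chemokine outside the Ccl and Cxcl classes, moved in opposite directions with AOA. The fall of Cx3cr1 with AOA was no longer called without AOA replicate 2 or with a minimum of 10 counts in every library. Cx3cr1 was low, at 1.69, 1.17 and 1.52 CPM in Mock, 0.88, 0.21 and 0.58 in AOA, and 0.51, 0.39 and 0.55 in AOA+Asp, so that AOA+Asp lay -1.58 ± 0.40 from Mock (edgeR adjusted p = 0.023). That call was lost with the minimum of 10 counts in every library, without Mock replicate 1 or 3, and without any 1 AOA+Asp library. Cx3cl1 was at 13.5, 11.9 and 11.5 CPM in Mock, 18.7, 17.1 and 19.0 in AOA and 9.004, 9.98 and 9.73 in AOA+Asp. HT-DNA raised Cx3cl1 by 0.82 ± 0.09, and with HT-DNA present AOA gave no call. Its HT-DNA libraries held 19.9, 22.4 and 22.6 CPM and its HT-DNA+AOA libraries 19.3, 21.9 and 23.8, so the groups overlapped.

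The receptor Ccr10 was higher with AOA (2.04 to 4.71 CPM) than in Mock (0.99 to 1.61). The decoy receptor Ackr3 was at the limit of detection, with 0.05 to 0.14 CPM in Mock and 0.41 to 0.77 in AOA, so no fold change is given. Ccr7, Ccr8, Cxcr2 and Cxcr5 were called in none of the comparisons. Rell1, a RELT-like membrane protein, belongs to none of the families above. It was at 30.0, 29.9 and 33.7 CPM in Mock and fell with AOA (21.6, 23.7 and 23.1) and with HT-DNA (18.6, 21.4 and 21.0), but AOA raised it in transfected cells to 28.3, 28.3 and 23.4, by 0.39 with all libraries and 0.48 without HT-DNA+AOA replicate 3.

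Promoter sequence is shown for 4 members whose transcripts rose, Gdf15, Crlf2 and Tnfrsf1b with AOA and Tnfrsf12a with HT-DNA, because NF-κB is a known outlet of both STING and the receptors themselves. RefSeq promoters (GRCm38.p6) were at hand for 50 of the 70 members, and Il23a and Cd40 were not among them. The 250 bases before the start are printed 5′ to 3′ on the gene's own strand, and capitals mark every match, overlaps included, to the loose κB pattern GGGNNNNNCC on either strand. The 4 windows lie on the minus strand at chr8:70632457-70632706, chr5:109558994-109559243, chr4:145246871-145247120 and chr17:23677450-23677699, and Gdf15 has 2 starts in the RefSeq table, of which the first is shown.
Gdf15: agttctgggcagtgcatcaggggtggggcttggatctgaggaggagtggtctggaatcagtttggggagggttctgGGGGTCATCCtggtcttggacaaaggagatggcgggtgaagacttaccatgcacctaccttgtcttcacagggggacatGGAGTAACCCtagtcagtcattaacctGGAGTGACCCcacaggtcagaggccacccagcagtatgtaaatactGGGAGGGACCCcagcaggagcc
Crlf2: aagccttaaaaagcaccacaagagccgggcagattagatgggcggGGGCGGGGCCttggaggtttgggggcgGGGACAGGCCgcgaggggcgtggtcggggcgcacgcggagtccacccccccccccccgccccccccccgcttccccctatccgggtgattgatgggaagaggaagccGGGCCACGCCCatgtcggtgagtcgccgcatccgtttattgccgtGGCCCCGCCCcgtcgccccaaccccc
Tnfrsf1b: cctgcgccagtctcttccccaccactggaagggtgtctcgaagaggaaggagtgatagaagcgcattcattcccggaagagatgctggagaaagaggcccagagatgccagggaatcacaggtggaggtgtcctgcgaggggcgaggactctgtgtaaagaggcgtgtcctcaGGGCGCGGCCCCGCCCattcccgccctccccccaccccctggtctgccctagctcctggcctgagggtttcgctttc
Tnfrsf12a: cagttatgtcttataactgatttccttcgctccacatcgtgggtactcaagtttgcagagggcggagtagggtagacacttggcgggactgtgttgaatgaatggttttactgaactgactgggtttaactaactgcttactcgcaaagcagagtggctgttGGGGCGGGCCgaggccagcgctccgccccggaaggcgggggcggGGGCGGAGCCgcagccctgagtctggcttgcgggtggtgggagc
The windows of Gdf15 and Crlf2 held 5 matches each, that of Tnfrsf1b 3 and that of Tnfrsf12a 2. Of all 32851 promoters of the same length 45.8% held at least 1 match, and 37 of the 60 promoters of members did. A match to a pattern this common describes the letters and marks no binding site.

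Whether the effect of AOA differed with HT-DNA was tested by an interaction term, which called 13 members, 4 with a more positive and 9 with a more negative effect in transfected cells (15.5% of all genes called, 7.23% and 8.26%). Without HT-DNA+AOA replicate 3 the counts were 10 and 14, while 37.2% of all genes were called, and all 13 remained among them. The 4 were Il1a, Osmr, Rell1 and Gdf15, at 1.34 ± 0.32, 0.85 ± 0.20, 0.84 and 0.80 ± 0.14. Of the 9, Il20rb, a chain of the IL-20 and IL-24 receptors, had the most negative value at -1.16 ± 0.33. It was 1.14 to 1.22 CPM in Mock and 1.20 to 1.45 in AOA, but 1.44 to 1.97 with HT-DNA and 0.54 to 1.03 with HT-DNA+AOA. Its interaction was not called with 10 counts in every library, with no filter, in the fit of these groups alone, or without Mock replicate 1 or HT-DNA replicate 1, and it was -0.95 without HT-DNA+AOA replicate 3. The interaction was -0.71 ± 0.15 for Cd40 and -0.64 ± 0.13 for Il4ra. Il23a, which rose with AOA in both settings, had an interaction of 0.15 ± 0.15 that was not called.

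**Figure D4:**
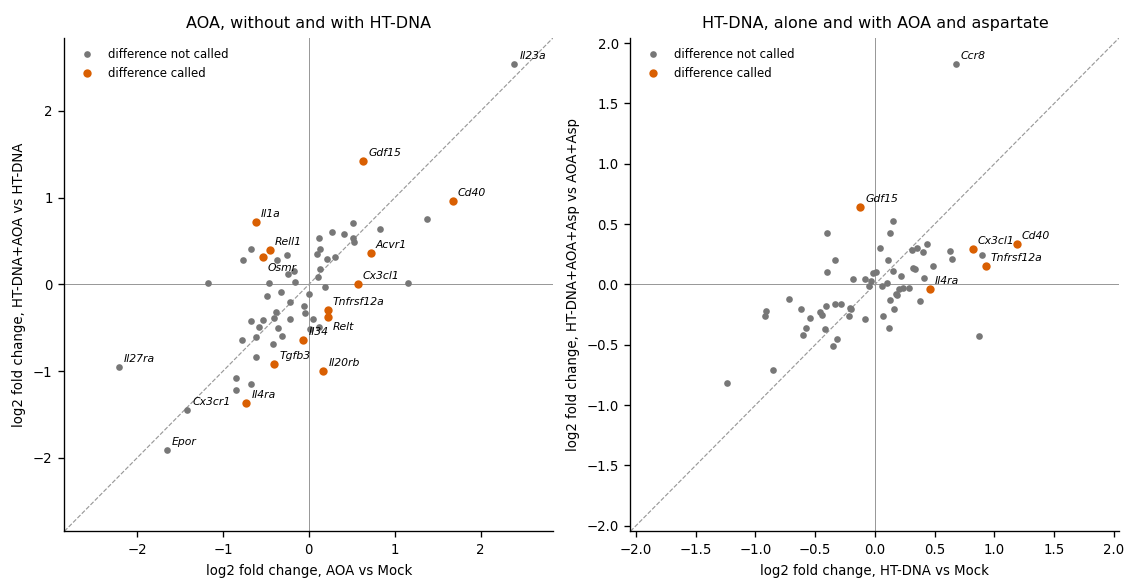
Left, log2 fold change with AOA without HT-DNA (x) and with HT-DNA (y); right, log2 fold change with HT-DNA alone (x) and in the presence of AOA and aspartate (y). Each point is 1 of 66 tested members (Ackr3 and Ctf2, near the limit of detection, are not drawn), orange points passed the interaction test, and the dashed line marks equal effects; on the right most points lie nearer to 0 on the y axis.

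The response to HT-DNA was also compared across the groups by contrasts added after the other results were known. HT-DNA+AOA against AOA called 9 members higher and 4 lower (13.5% of all genes called, 6.46% and 6.99%), or 10 and 4 without HT-DNA+AOA replicate 3 (14.3%, with 6.97% and 7.34%), where Il6st and Tnfrsf12a were no longer called. The fit of these groups alone kept 4 of the 13 calls. It lost those of Acvr2b, Cd40, Il15ra, Il17ra, Il1a, Il1r1, Il6st, Tnfrsf12a and Tnfrsf1b. HT-DNA+AOA+Asp against AOA+Asp called 3 higher (Gdf15 and Il17ra among them) and 2 lower (Acvr1b and Il1r1), of which the calls of Il17ra and Acvr1b were lost without AOA+Asp replicate 3 and without HT-DNA+AOA+Asp replicate 1, among others, and 3.45% of all genes (1.93% and 1.52%). HT-DNA against Mock had called 29 members, and the median absolute log2 fold change over the members was 0.34 there against 0.21 with AOA and aspartate. The difference between these 2 responses, tested directly, was called for 6 members (6.25% of all genes, 3.24% and 3.01%). It was -0.85 ± 0.15 for Cd40, -0.77 ± 0.15 for Tnfrsf12a, -0.53 ± 0.14 for Cx3cl1, -0.50 ± 0.13 for Il4ra and 0.77 ± 0.15 for Gdf15. Those of Cd40, Tnfrsf12a and Gdf15 were called in every alternative tried except the fold minimum. Those of Cx3cl1 and Il4ra were lost with library totals and without any 1 Mock library, among others. With library totals 3 members had a more positive and 2 a more negative response in place of 1 and 5. That scaling moved the median of all genes by 0.098. Over all genes, 78.4% of the calls were then more positive, against 51.9% with TMM factors. As no group had HT-DNA with aspartate but no AOA, the parts of AOA and aspartate in these differences cannot be told apart.

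The genes that carry these signals inside the cell, on 2 lists of 22, were measured in the same fit, with all libraries. Of 20 tested SMAD proteins, antagonists and targets, AOA raised 8 and lowered 4 (22.5% and 23.2% of all genes) and HT-DNA raised 5 and lowered 6 (24.2% and 24%). Smad6, an inhibitory SMAD of the BMP branch, fell with AOA at -1.12, rose with aspartate at 1.07 and fell with AOA on top of HT-DNA at -1.60, and Smad3 rose by 0.64 with AOA. Of 21 tested adaptors of TNF, IL-1 and IL-17 receptors, AOA raised 3 and lowered 5, HT-DNA raised 6 and lowered 6, and AOA on top of HT-DNA raised 5 and lowered 10 (22.8% and 22.7% of all genes). Traf1, which binds TNF receptor 2 and CD40 complexes, rose with AOA by 1.03 and by 1.45 on top of HT-DNA and fell with aspartate by -1.28 and -1.90. Ripk1, the kinase bound to TNF receptor 1, fell by 0.61 and 0.48 on the log2 scale with AOA.

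Of the 69 tested members, 14 were called in none of the 7 comparisons between groups that the design implies: Amh, Amhr2, Ccr7, Ccr8, Cntf, Ctf1, Ctf2, Cxcr2, Cxcr5, Ghr, Il10rb, Il7, Inha and Tnfrsf8. Il15, which was not tested, averaged 0.16 to 0.52 CPM over the groups.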

How the data were processed

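Total RNA of 18 L929 cultures (6 groups of 3 biological replicates) was extracted with TRIzol and sequenced by a service provider. The authors deposited estimated counts per gene for each library, not normalized, of which 11.6% were not whole numbers. The aligner, counting program and genome build are not given in the sources used here. The authors' group means were checked against the libraries and not used.

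Counts were rounded to whole numbers and fitted together for all 18 libraries with edgeR 4.0.16 (R 4.3.3): filterByExpr (minimum count 10, total 15), TMM factors of 0.918 to 1.07, a robust quasi-likelihood test and Benjamini-Hochberg adjustment over 14263 genes, with calls at an adjusted p of 0.05. CPM values use library totals of the genes tested times the TMM factors. The 3 contrasts on the response to HT-DNA were added after the results were seen. P-values weigh the difference between groups against the spread between these cultures, estimated over all 6 groups together. The HT-DNA+AOA libraries were spread more widely than those of the other groups. In the fit of the groups compared alone, HT-DNA+AOA against HT-DNA kept 27 of 44 calls.

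Counts were simulated for AOA against Mock with 200 of 14263 genes changed, in the AOA group only. There, 81% of genes changed by 1 and 96% of genes changed by 2 on the log2 scale were recovered. Unchanged genes made up 5.85% of calls. In the data 45.7% of genes were called for this comparison, so these rates need not hold there. Alternatives were RLE factors, library totals, other filters, a fold minimum, a replicate block, fits restricted to the groups compared, a loess correction for GC content and length (GENCODE vM21, which held all 70 members and also gave lengths and shared 31-base sequences), DESeq2 1.42.0, and each library left out in turn. Promoters came from RefSeq. The values of 1 member and 1 target gene are not reported here. The members and gene lists were chosen with earlier results of these data known. Named members were the 4 largest rises and falls per comparison among calls at 1 CPM or more without overlap, the 2 highest per list by length-scaled level, and listed ligand and receptor pairs; others named were chosen after their values were seen. Samples of the same replicate number deviated together at correlations of -0.11 to 0.28 (median 0.01), so the numbers were not taken as pairs.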

Additional observations from a re-analysis of the deposited data

Results flagged for a closer look

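The effect of AOA differed between cells without and with HT-DNA for 13 members, by an interaction term in the edgeR fit at an adjusted p of 0.05. The difference (AOA effect with HT-DNA minus AOA effect without it, log2 scale) was positive for Il1a (1.34), Osmr (0.85), Rell1 (0.84) and Gdf15 (0.80). It was negative for Il20rb (-1.16), Cd40 (-0.71), Il4ra (-0.64), Relt (-0.60), Il34 (-0.57), Cx3cl1 (-0.57), Tnfrsf12a (-0.52), Tgfb3 (-0.51) and Acvr1 (-0.36). Those of Cd40, Cx3cl1, Gdf15, Il1a, Il4ra, Osmr and Rell1 were called in every alternative except the fold minimum, which of these only that of Il1a met. The call of Tgfb3 was lost without AOA replicate 2 and under the correction for length and GC content, and that of Il20rb with 10 counts in every library, with no filter, in the fit of these groups alone, and without Mock replicate 1 or HT-DNA replicate 1. The calls of Acvr1, Il34 and Relt were lost with library totals, and with that of Tnfrsf12a in the fit of these groups alone and, among other left-out libraries, without Mock replicate 1, AOA replicate 2 or HT-DNA replicate 1. No filter also lost Acvr1 and Il34, the GC and length correction Il34 and Relt, and RLE factors and 10 counts in every library Relt.

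The effect of HT-DNA differed between untreated cells and cells given AOA and aspartate for 6 members, of which 5 are given here, by an interaction contrast added after the data were seen. The difference (effect with AOA and aspartate minus effect of HT-DNA alone, log2 scale) was 0.77 for Gdf15, -0.85 for Cd40, -0.77 for Tnfrsf12a, -0.53 for Cx3cl1 and -0.50 for Il4ra. Those of Gdf15, Cd40 and Tnfrsf12a were called in every alternative except the fold minimum. Those of Cx3cl1 and Il4ra were lost with library totals, without any 1 Mock or HT-DNA+AOA+Asp library, and without HT-DNA replicate 1 or 3 or AOA+Asp replicate 2 or 3, and that of Cx3cl1 also after correction for GC content and length. The parts of the transfection reagent, AOA and aspartate in these differences were not tested.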

How the results depend on the processing

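Counts of members are given as higher and lower. Where calls also had to reach 1 on the log2 scale in size, AOA against Mock called 4 and 4, AOA+Asp against AOA 3 and 6, AOA+Asp against Mock 0 and 2, HT-DNA against Mock 2 and 1, HT-DNA+AOA against HT-DNA 4 and 6, HT-DNA+AOA+Asp against HT-DNA+AOA 4 and 7, HT-DNA+AOA+Asp against HT-DNA 0 and 2, the AOA interaction 1 and 1, HT-DNA+AOA against AOA 1 and 0, and HT-DNA+AOA+Asp against AOA+Asp and the AOA and aspartate interaction 0 and 0. In fits restricted to the groups compared, AOA+Asp against Mock called 4 and 18 (1 and 10 in the fit of all libraries), HT-DNA+AOA against HT-DNA 11 and 16, HT-DNA+AOA+Asp against HT-DNA+AOA 9 higher, the AOA interaction 4 lower, HT-DNA+AOA against AOA 3 and 1, HT-DNA+AOA+Asp against AOA+Asp 5 and 7, and the AOA and aspartate interaction 4 and 10. AOA+Asp against Mock called 0 higher with library totals or no filter. Correction for GC content and length gave 7 lower for HT-DNA+AOA against AOA and 5 lower for HT-DNA+AOA+Asp against AOA+Asp. The AOA and aspartate interaction (1 and 5) had 3 and 2 with library totals, 2 higher with 10 counts in every library, 3 higher with no filter, 3 higher with the GC correction and 4 higher with DESeq2. The cause was not tested for these changes. For the restricted fits, the other alternatives and the libraries left out, shares of all genes are not set beside the counts here. Those counts are therefore not shown to be particular to the members.

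With 1 library left out, the ranges were 12 to 16 and 18 to 23 for AOA against Mock, 15 to 18 and 18 to 19 for AOA+Asp against AOA, 0 to 0 and 6 to 9 for AOA+Asp against Mock (6 without Mock replicate 1, Mock replicate 2 or AOA+Asp replicate 1), 12 to 16 and 9 to 12 for HT-DNA against Mock, 13 to 18 and 18 to 25 for HT-DNA+AOA against HT-DNA, 14 to 22 and 20 to 23 for HT-DNA+AOA+Asp against HT-DNA+AOA, 4 to 8 and 20 to 23 for HT-DNA+AOA+Asp against HT-DNA (lowest at 4 when HT-DNA replicate 1 was left out, and 5 when HT-DNA+AOA+Asp replicate 2 or 3 was), 4 to 10 and 4 to 14 for the AOA interaction (10 and 14 without HT-DNA+AOA replicate 3, and 4 lower without Mock replicate 1, AOA replicate 2 or HT-DNA replicate 1), 7 to 13 and 2 to 11 for HT-DNA+AOA against AOA (2 without AOA replicate 1, 11 without HT-DNA+AOA replicate 1), 2 to 3 and 1 to 2 for HT-DNA+AOA+Asp against AOA+Asp (1 without AOA+Asp replicate 3 or HT-DNA+AOA+Asp replicate 2 or 3), and 1 to 3 and 2 to 6 for the AOA and aspartate interaction (3 higher without HT-DNA replicate 2; 2 lower without any 1 Mock or HT-DNA+AOA+Asp library, AOA+Asp replicate 2, or HT-DNA replicate 1 or 3; 3 lower without AOA+Asp replicate 3).

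Correction for GC content and length reversed 8 called log2 fold changes: Tgfb1 (0.0171) for HT-DNA+AOA against HT-DNA, Tnfrsf1a (-0.0996), Il34 (-0.0267), Clcf1 (-0.0025) and Bmpr2 (0.0025) for HT-DNA against Mock, and Osmr (-0.0381), Clcf1 (0.0498) and Bmpr2 (-0.1139) for HT-DNA+AOA+Asp against HT-DNA. With the replicate block the counts were 13 and 23, 16 and 20, 1 and 11, 16 and 12, 19 and 24, 19 and 21, and 9 and 23 for the 7 comparisons in the order above, 4 and 9 for the AOA interaction, and 2 and 5 for the AOA and aspartate interaction; 9 of 18 libraries correlated best with their own number. Members under 1 CPM had few counts, and a difference in them was often not detectable at this depth.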
